A study of Drosophila melanogaster with 13 samples.

Results

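The X chromosome of Drosophila melanogaster was examined over its first 20 Mb, leaving out the stretch from 8.3 to 8.6 Mb around the follicle cell amplicon and the end near the centromere. All peaks of the 9 deposited ChIP-seq peak lists that start there were taken, by position alone, and they came to 3393 of 83082 peaks in all. Positions are of Release 5 (dm3). A peak is a stretch where the authors' peak caller found more ChIP tags (mapped reads) than in the input, which is chromatin sequenced without an antibody.

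In salivary glands that were dissected by hand from larvae at the wandering phase of the third instar, gamma-H2Av (Rockland antibody) was precipitated from a SuUR mutant strain and from OrR, a wild-type strain, and rabbit IgG (Abcam) from OrR was the background. In OrR egg chambers, antibodies labelled SUUR and Cdc45 and guinea pig IgG, all made in-house, were used at pooled stages 12 and 13 and at stage 10. These came from females fattened on yeast, with 600 egg chambers per ChIP and fixation in 2% formaldehyde. Each group was 1 library, so no test between groups could be made, and no difference below was set against a spread between replicates. The 4 inputs, one for each strain or stage, entered only through the authors' peak calls. Larval sex, which sets the number of X copies, is not given in the sources used here. The SuUR glands had no IgG list here, so OrR IgG is set beside both strains, and the peak lists hold no measure that would check the mutation. Egg chambers hold follicle cells, nurse cells and the oocyte, and the lists cannot tell these cells apart.

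Before any egg chamber value is read, a conflict must be known. Each of the 4 egg chamber lists with a SUUR or Cdc45 label has a file header whose run name gives the other of these antibodies. The libraries are therefore named by their labels throughout, and which antibody a list stands for was not settled. Depth differed too. In glands it was 15996251 tags for SuUR gamma-H2Av, and OrR had 19208769 with gamma-H2Av and 16337826 with IgG. In egg chambers 5 libraries had from 2592149 to 8265341 tags. The stage 10 library labelled SUUR had 353742 tags. Lists called against the same input (OrR gamma-H2Av with OrR IgG, and the 3 lists of each egg chamber stage) are given side by side, and no overlap between them is read as a result.

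Gamma-H2Av is the phosphorylated form of H2Av, the fly's H2A variant, and it spreads along chromatin on both sides of a DNA break. Salivary gland chromosomes are polytene, grown through repeated rounds of replication without division, and some late replicating regions within them are copied less often than the rest. SUUR is a chromatin protein of such regions, and in SuUR mutants they are copied more fully. Cdc45 is part of the replicative helicase, which opens DNA at the fork, and in egg chambers of these stages follicle cells amplify chorion gene loci.

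On X, gamma-H2Av in OrR glands lay mainly in a few dense clusters of broad peaks, and the SuUR list held isolated peaks. OrR clusters of this kind were also found on other major arms, whose counts are given below. The SuUR gamma-H2Av list had 11 peaks covering 50.5 kb, or 0.256% of the region, the OrR gamma-H2Av list 68 peaks covering 367 kb, or 1.87%, and the OrR IgG list 44 peaks covering 194 kb, or 0.983%. Median peak widths were 4456 bp in the SuUR list, 5054 bp in the OrR gamma-H2Av list and 3628.5 bp in the OrR IgG list. Folds, which are the authors' enrichment over the input, reached 4.40 in the SuUR list, 9.07 in the OrR gamma-H2Av list and 6.92 in the OrR IgG list. The lists were thresholded by p-value against different inputs, so their totals show what each call set holds.

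Peaks of a list that lay within 100 kb of each other were joined into clusters. The 11 SuUR peaks formed 9 clusters, 7 of them single peaks and none with 5 or more. The 68 OrR gamma-H2Av peaks formed 11 clusters, of which 4 had 5 or more peaks and held 61 of the peaks and 83.6% of the covered length. The OrR IgG list gave 17 clusters, with 3 of 5 or more peaks that held 43.8% of its covered length. The OrR gamma-H2Av clusters of 28, 15 and 13 peaks are called the dense clusters below.

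**Figure D1:**
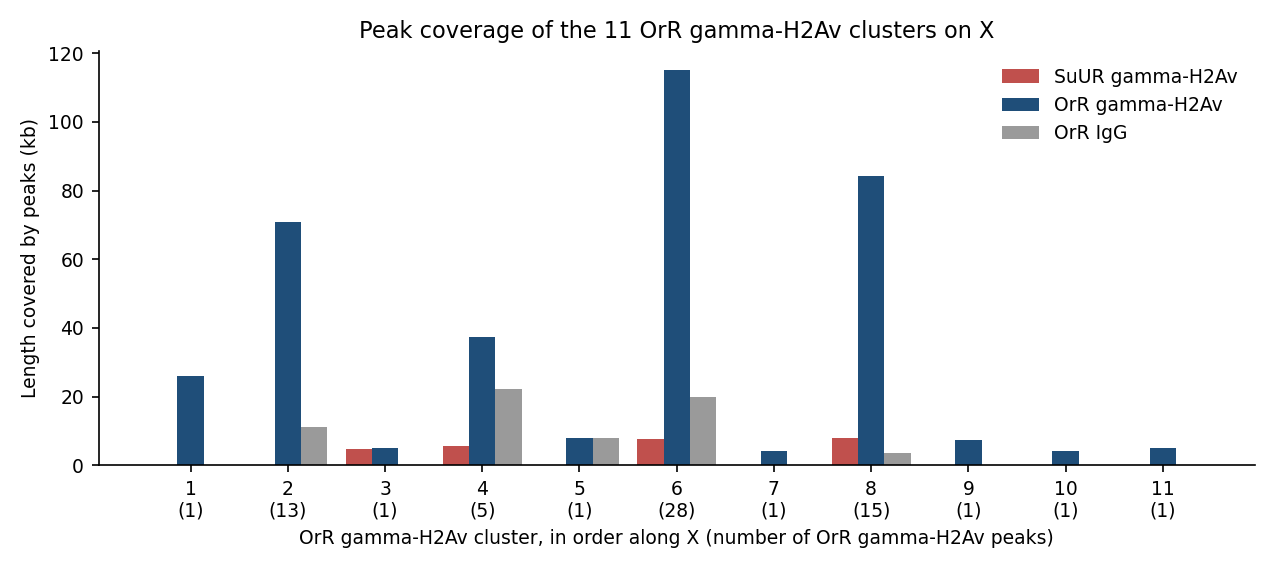
Length covered by peaks (kb) in each of the 11 OrR gamma-H2Av clusters on X, in order along the chromosome, for SuUR gamma-H2Av, OrR gamma-H2Av and OrR IgG (1 library each, no error bars). The clusters of 28, 15 and 13 OrR peaks stand out, and SuUR coverage is at most 7.94 kb in any of the 11.

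The widest coverage lay near 12.0 Mb. From 11982426 to 12253563, a span of 271 kb, the OrR gamma-H2Av list held 28 peaks that covered 115 kb, or 42.4% of the span, and SuUR peaks covered 7.70 kb and OrR IgG peaks 20.05 kb. The OrR peaks had folds of 3.23 to 6.47, with a median of 4.01. They were packed closely: 18 of the 27 gaps between neighbours were under 1 kb, and the median gap was 219 bp. Joined where gaps were 5 kb or less, the peaks made 8 blocks, 4 of them over 10 kb long, and these 4 held 88.7% of the covered length.

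The longest block ran from 12082453 to 12124576 with 11 peaks that covered 39.1 of 42.1 kb. It held the peak of highest fold in the cluster, at 12100967 to 12107591, with 375 tags and a fold of 6.47, and, to its right, a peak with a fold of 5.97 that an OrR IgG peak also touched. The other long blocks ran from 12029577 to 12057457 (6 peaks, 25.7 kb covered), from 12182800 to 12193401 (2 peaks, 10.3 kb covered) and from 12226403 to 12253563 (4 peaks, 26.9 kb covered). The cluster was thus a set of filled blocks separated by gaps without gamma-H2Av peaks, the widest of them 45.3 kb. OrR IgG covered 6.09 kb inside the 8 blocks, whose spans add up to 121 kb, and 13.96 kb in the gaps between them. In bins of 10 kb over the 400 kb around the cluster, 1 of 40 bins was covered by 50% or more in the SuUR list, 10 in the OrR gamma-H2Av list and 2 in the OrR IgG list. The bin with the highest IgG coverage, at 56.5%, had no OrR gamma-H2Av peak.

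The cluster of 15 peaks ran from 14191176 to 14404668. There 15 OrR gamma-H2Av peaks covered 84.2 kb of 213 kb, or 39.4%, SuUR peaks covered 7.94 kb and OrR IgG peaks 3.66 kb. Folds of the OrR peaks ran from 3.12 to 6.01 with a median of 3.94, and 10 of the 14 gaps were under 1 kb. The peaks made 5 blocks. The longest, 14376476 to 14404668, held 5 peaks that covered 27.8 of 28.2 kb, among them the peak of highest fold in the cluster, at 14385384 to 14394177 with 685 tags. The block from 14318889 to 14338745 was 2 peaks that covered 19.8 of 19.9 kb, and the one from 14256273 to 14275567 was 4 peaks that covered 19.1 of 19.3 kb, the rightmost with a fold of 5.63. Both SuUR peaks of this region fell in the leftmost block, 14191176 to 14204407, and the other 4 blocks had no SuUR peak. In the 40 bins of 10 kb here, the number covered by 50% or more was 1 in the SuUR list, 7 in the OrR gamma-H2Av list and 0 in the OrR IgG list.

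**Figure D2:**
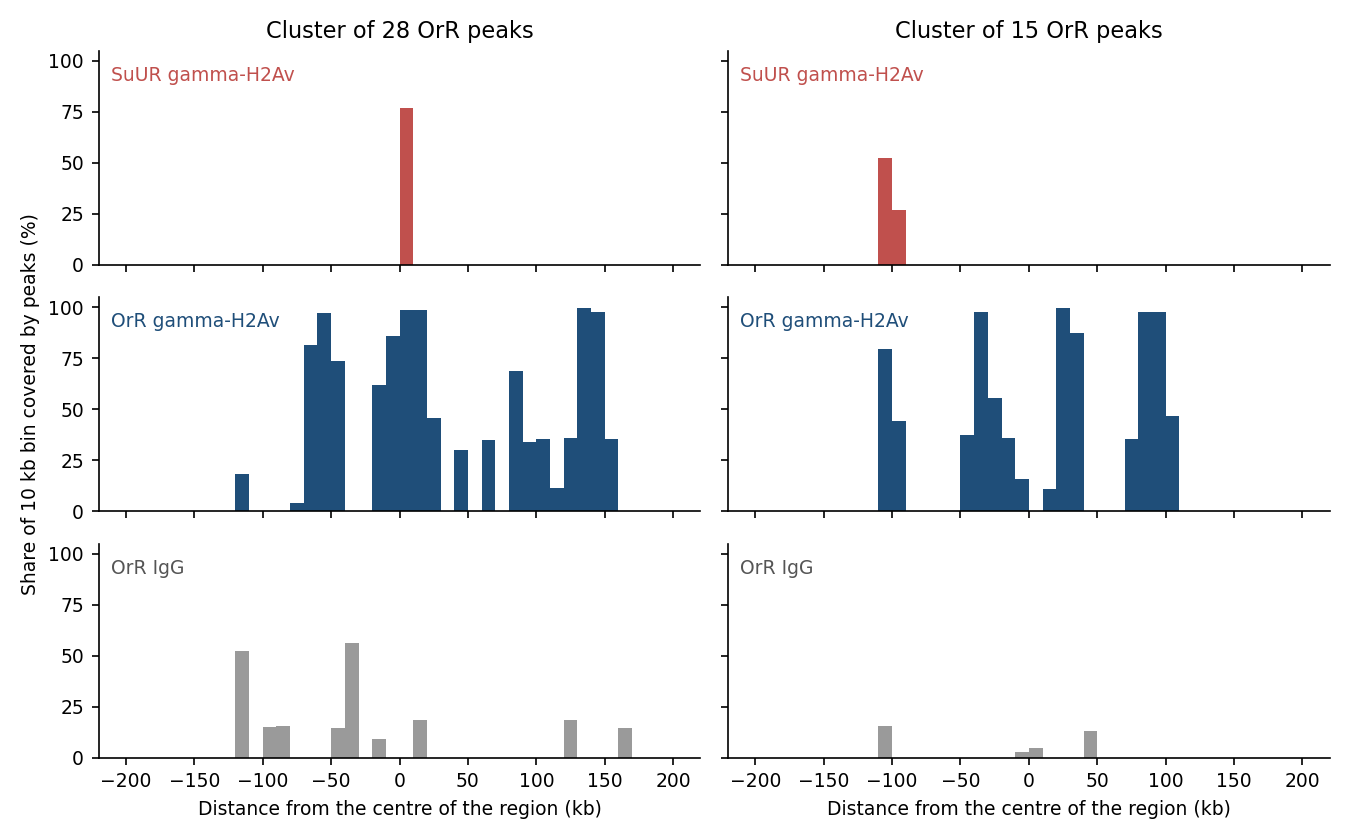
Share of each 10 kb bin covered by peaks (%) in the 400 kb around the cluster near 12.0 Mb (left) and the cluster of 15 peaks near 14.3 Mb (right), by distance from the centre of the region in kb, for SuUR gamma-H2Av, OrR gamma-H2Av and OrR IgG. OrR gamma-H2Av bins reach 99.8% on the left and 99.9% on the right and fall into separate blocks, and SuUR peaks fill 1 bin of each region by 50% or more.

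The third dense cluster lay from 2866369 to 3008261. Its 13 OrR gamma-H2Av peaks covered 70.8 kb of 142 kb, or 49.9%, SuUR peaks none of it and OrR IgG peaks 11.1 kb. The peaks made 4 blocks, 3 of them over 10 kb. The peak of highest fold, 5.59, was also the widest of this cluster, 12938 bp from 2992449 to 3005386. No IgG peak touched these 4 blocks. The IgG coverage of the span lay in the gaps, and its larger part was 2 peaks from 2964085 to 2975216, a place where egg chamber lists also had peaks, described below.

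The remaining cluster of 5 or more peaks was sparse and lay beside IgG peaks. From 9689968 to 9997072, 5 OrR gamma-H2Av peaks covered 37.4 kb, or 12.2% of the span, a SuUR peak 5.74 kb and 5 OrR IgG peaks 22.3 kb. Its gaps had a median of 86817 bp. Of the 7 single OrR gamma-H2Av peaks, the one nearest the telomere was the widest and had the highest fold of all X peaks in the list: it ran from 10744 to 36825, 26082 bp, with 5297 tags and a fold of 9.07. Neither the SuUR list nor the OrR IgG list had a peak there. The single peak at 11636669 to 11644715 (fold 4.47) lay wholly under an OrR IgG peak with a fold of 4.30.

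In windows of 100 kb the same regions stood above IgG. A window was counted as rich where its covered share exceeded that of OrR IgG by 20 percentage points or more. OrR gamma-H2Av was rich in 7 of 197 X windows, or 3.55%, against a background of 2.59% of the 1697 windows of all chromosomes, a share near that of X. The 7 windows formed 4 runs: 0.0 to 0.1 Mb, 2.9 to 3.0 Mb, 12.0 to 12.3 Mb and 14200001 to 14400000. SuUR gamma-H2Av was rich in 0 of 197 X windows, against 2.71% of the 1697 windows of all chromosomes. Both backgrounds also hold windows off the major arms, where most gamma-H2Av peaks lay. Of the 6712 SuUR peaks 205 were on major arms, and of the 5175 OrR peaks 677 were. No share of rich gland windows was taken for the arms alone, so the 0 on X is not read as a depletion. SuUR peaks covered 7.70 kb of the 12.0 to 12.3 Mb run and 2.71 kb of the run from 14200001, and had no peak in the other two.

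Coverage in the single windows is given next. Rich windows were picked by their margin over IgG, so its size is not a separate result. At 2.9 Mb OrR gamma-H2Av covered 47.5 kb and OrR IgG 11.1 kb. At 12.0, 12.1 and 12.2 Mb OrR gamma-H2Av covered 40.5, 41.1 and 31.6 kb, and OrR IgG 11.1, 1.84 and 3.33 kb. In the windows that start at 14200001 and 14300001 OrR gamma-H2Av covered 28.7 and 43.0 kb, and OrR IgG 0.285 and 1.79 kb. The first window, with the telomeric peak, had 26.1 kb of OrR gamma-H2Av and no IgG peak. Just under the limit lay the window at 9.9 Mb with 17.5 kb of OrR gamma-H2Av and no IgG. The next, at 2.8 Mb, was well below it with 15.04 kb of OrR gamma-H2Av and 4.11 kb of IgG. The reverse, IgG above OrR gamma-H2Av by the same limit, held for 1 X window, at 2.7 Mb, with no gamma-H2Av peak and 23.9 kb of IgG, against 0.412% of the 1697 windows. IgG exceeded SuUR gamma-H2Av by that limit in 2 of 197 X windows, or 1.02%, beside 17 of the 1697 windows, or 1.0%.

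The dense clusters also differed from other X peaks in how many tags lay behind each peak. Of the 68 OrR gamma-H2Av peaks, the 56 in the dense clusters had a median of 55.7 tags per kb, from 42.1 to 97.2, and the 12 elsewhere had 97.3, from 62.9 to 203. The mean of that library over the 169 Mb that the lists span was 114 tags per kb. All 56 cluster peaks were under it, at a median of 48.9% of the mean, and 10 of the other 12 were under it too. Their folds over the input did not follow the same order: the median was 3.95 in the dense clusters and 3.52 elsewhere. A fold is taken over the input at the same place, so a place with fewer tags than the mean can still hold a peak.

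The other gland lists also had their lower median densities at these places, though IgG had its highest single densities there too. The 3 SuUR peaks in the dense clusters had a median of 53.9 tags per kb, from 52.3 to 57.2, and the 8 elsewhere 80.9, from 51.2 to 139. The 15 OrR IgG peaks there had a median of 51.3, from 39.2 to 257, and the 29 elsewhere 70.8, from 55.8 to 126. With 1 library each, the part of copy number in these densities was not tested. For the other major arms all peaks were taken, with amplicons and centromere ends left in, so these sets are unlike that of X. There OrR gamma-H2Av peaks in clusters of 10 or more had median densities of 42.3 on 2L, 47.8 on 3L, 53.4 on 3R and 68.3 on 2R. Those outside such clusters had 74.2, 79.4, 74.4 and 58.3 in the same order. X, 2L, 3L and 3R thus had the lower median in clusters, and 2R, with 11 peaks in clusters, had the higher one. Clusters of 10 or more held 229 of 273 OrR gamma-H2Av peaks on 2L and 153 of 191 on 3L. They held 40 of 61 on 3R and 11 of 39 on 2R, beside 56 of 68 on X.

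**Figure D3:**
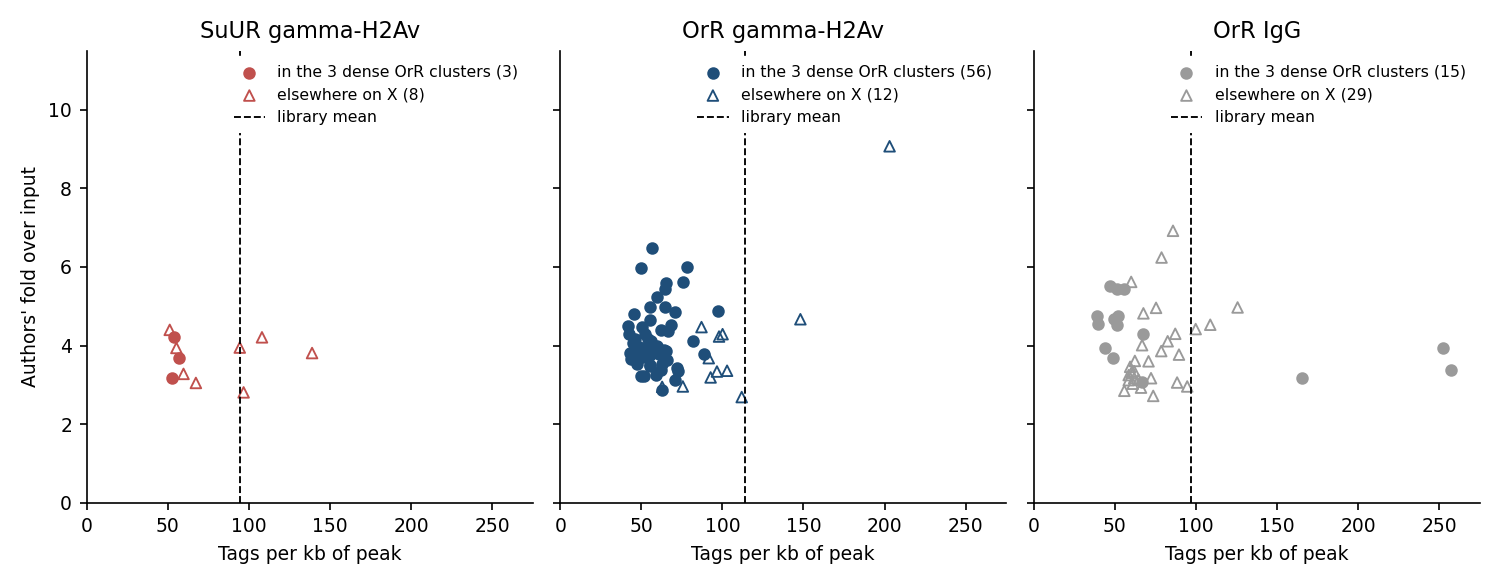
Tags per kb of peak (x axis) against the authors' fold over the input (y axis) for the X peaks of SuUR gamma-H2Av, OrR gamma-H2Av and OrR IgG. Filled circles are peaks in the 3 dense OrR clusters, open triangles are other X peaks, and the dashed line is the mean tag density of the library. The OrR gamma-H2Av circles lie between 42.1 and 97.2 tags per kb, left of the line, at folds like those of the triangles.

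SuUR against OrR was then compared peak by peak, since the strains had different inputs. Of the 11 SuUR peaks, 5 overlapped an OrR gamma-H2Av peak, or 45.5% (Wilson 95% interval 21.3 to 72.0). Of the 68 OrR peaks, 7 overlapped a SuUR peak, or 10.3% (5.08 to 19.8). Such intervals cover counting error only, and they treat peaks as independent. Many OrR peaks lay close together in clusters, where a single SuUR peak could overlap several of them. Over all peaks of the lists the shares were 42.6% of 6712 SuUR peaks and 54.7% of 5175 OrR peaks, and over the peaks on 2L, 2R, 3L, 3R and X they were 37.6% of 205 and 16.8% of 677. The difference between X and the rest was not tested. In the cluster of 28 OrR peaks the SuUR list held a single peak, 12100845 to 12108543, at the place of the OrR peak of highest fold. Its fold was 3.17 in SuUR, and that of the OrR peak beneath it was 6.47, each over the input of its own strain. The 2 OrR peaks that it touched at its ends had folds of 4.06 and 5.97. Folds of the 2 strains are given side by side, and no difference between them is read as a result. Scaled to the depth of each library, the tag density of the SuUR peak was 1.11 times that of the OrR peak beneath it. It was 1.41 and 1.27 times those of the 2 OrR peaks at its ends, in the order given.

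In the cluster of 15 OrR peaks the 2 SuUR peaks lay at 14194556 to 14199011 and 14199228 to 14202709. Their folds were 4.22 and 3.68 in SuUR, and the OrR peaks they overlapped had folds of 3.78 and 3.82. Scaled to depth, their tag densities were 0.727 and 1.59 times those of these OrR peaks. The first of the 2 SuUR peaks overlapped an OrR IgG peak, alone among the 11 SuUR peaks. The other pairs lay outside the dense clusters. At 6915620 to 6924279 the fold was 2.81 in SuUR and 3.68 in OrR, and at 9904402 to 9910137 it was 4.21 in SuUR and 4.67 in OrR. The depth-scaled density of the SuUR peak was 1.27 times that of the OrR peak at the former place and 0.876 times at the latter.

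The 6 SuUR peaks away from OrR gamma-H2Av peaks were scattered along X. The pair at 4722615 to 4727893, with folds of 3.94 and 4.40, lay 1714 kb or more from the nearest OrR gamma-H2Av peak and 11.9 kb from an OrR IgG peak. The peak at 10843418 to 10845345 had a fold of 3.95 and lay 791 kb from the nearest OrR gamma-H2Av peak. The peak at 11485520 to 11489573 had a fold of 3.05, and the one at 19692260 to 19696748 a fold of 3.28. The one at 15186549 to 15191261 had a fold of 3.81 and, at 139 tags per kb, the highest density of the 11. By fold, the 5 highest SuUR peaks outside IgG were both peaks of the pair near 4.7 Mb and those near 9.9, 10.8 and 15.2 Mb, so none was in a dense OrR cluster. In the OrR gamma-H2Av list, 4 of the 5 highest outside IgG were in the dense clusters, with folds of 5.59 to 6.47, and the telomeric peak was the fifth.

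Egg chamber peaks on X were many and narrow, and the list labelled Cdc45 had the most at each stage. At stages 12-13 the list labelled SUUR had 588 X peaks covering 61.2 kb, the list labelled Cdc45 620 covering 100.5 kb, and IgG 331 covering 34.4 kb. At stage 10 these were 528 peaks and 34.4 kb, 1107 peaks and 156 kb, and 96 peaks and 11.1 kb, in the same order. Median widths ran from 49 bp in the stage 10 list labelled SUUR to 99 bp in the stages 12-13 list labelled Cdc45, beside a tag length of 44 bp. The covered share of the region was at most 0.790%, in the stage 10 list labelled Cdc45, which was also the deepest egg chamber library.

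The list labelled SUUR at stage 10 rested on few tags. Of its 528 X peaks, 461, or 87.3%, had a summit pileup (the number of tags stacked at the highest point) under 5, and none of the other egg chamber lists had such a peak on X. Its peaks were spread over 181 of 197 windows, with a median of 0.14 kb per window. The library labelled SUUR at stages 12-13 had peaks in 94 windows, the one labelled Cdc45 in 93 at stages 12-13 and in 117 at stage 10, and IgG in 86 at stages 12-13 and in 26 at stage 10.

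Between stages, the list labelled Cdc45 covered less of X at stages 12-13 than at stage 10, with a ratio of 0.646 and a depth ratio of 0.840 between these libraries. It was lower at stages 12-13 in 99 windows, higher in 20 and equal in 78. IgG went the other way: stages 12-13 covered 3.10 times the stage 10 length at a depth ratio of 0.666, and was higher in 82 windows and lower in 4. For the list labelled SUUR the ratio of covered length was 1.78, at a depth ratio of 13.6, with 69 windows higher and 121 lower at stages 12-13. On X the ratio of covered length between stages was thus farther from 1 for IgG than for either labelled list. The whole lists differed from X in their peak counts at stages 12-13 and stage 10. IgG had 6933 and 5551 peaks in all, beside 331 and 96 on X. The label SUUR had 9875 and 5147, beside 588 and 528, and the label Cdc45 13241 and 24764, beside 620 and 1107. The X ratios therefore do not stand for the whole libraries.

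**Figure D4:**
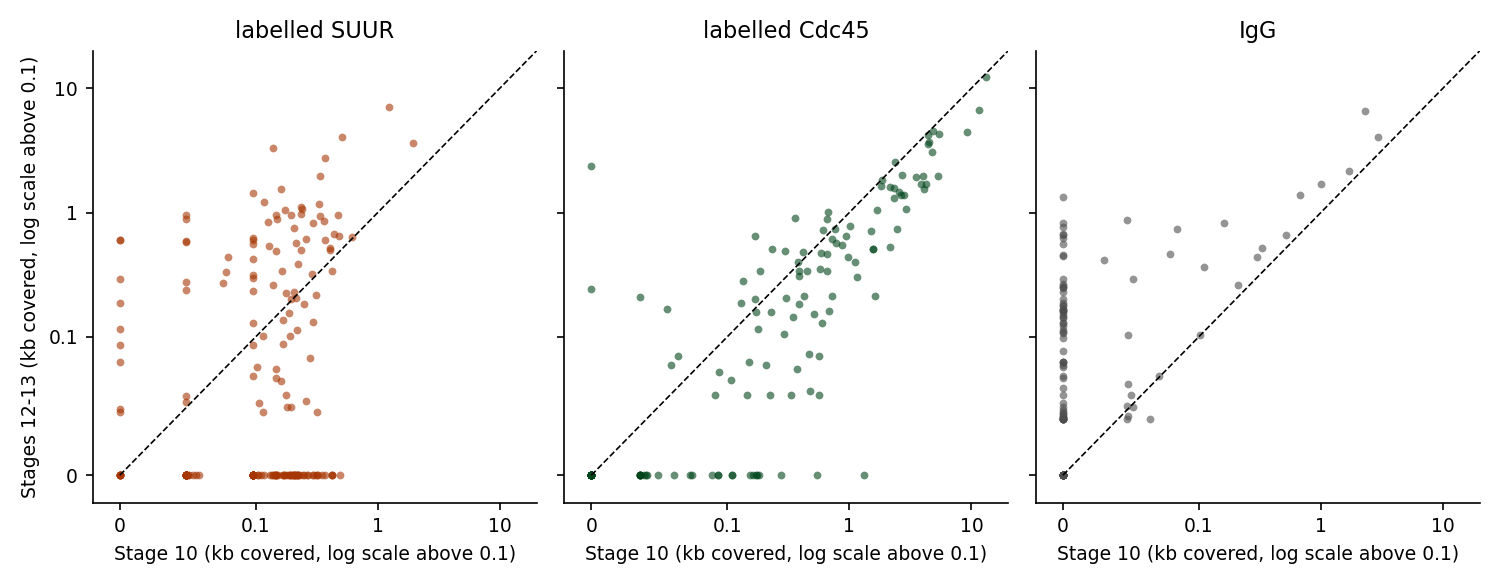
Length covered by peaks (kb) in each of 197 windows of 100 kb on X at stages 12-13 (y axis) and at stage 10 (x axis), for the lists labelled SUUR, labelled Cdc45 and IgG. Both axes are logarithmic above 0.1 kb and linear below, and the dashed line marks equal lengths. Most windows of the list labelled Cdc45 that hold peaks lie below the line and those of IgG above it.

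For the lists labelled Cdc45, 418 of 620 stages 12-13 peaks, or 67.4% (Wilson 95% interval 63.6 to 71.0), overlapped a stage 10 peak, and 383 of 1107 stage 10 peaks, or 34.6% (31.9 to 37.4), overlapped a stages 12-13 peak. For the lists labelled SUUR the shares were 34 of 588, or 5.78% (4.17 to 7.97), and 38 of 528, or 7.20% (5.29 to 9.72). With the 67 stage 10 peaks of pileup 5 or more, 41.8% (30.7 to 53.7) overlapped a stages 12-13 peak. That share was taken on X only and without a split by IgG overlap, so it is not read as a result for the antibody. The IgG lists, as background, shared 49 of 331 stages 12-13 peaks, or 14.8% (11.4 to 19.0), and 66 of 96 stage 10 peaks, or 68.8% (58.9 to 77.1). Over all peaks of the lists the shares of stages 12-13 and of stage 10 peaks were 67.4% and 36.3% for the label Cdc45, 6.94% and 16.2% for the label SUUR, and 31.3% and 39.7% for IgG. The X shares of the lists labelled Cdc45 were thus near those of the whole lists. On the major arms, X included, the Cdc45-labelled shares were 52.4% of 4077 stages 12-13 peaks and 30.5% of 6926 stage 10 peaks. Both were below the X shares. For the label SUUR the arm shares were 4.93% and 8.23%, and for IgG 8.15% and 53.4%. The difference between X and the other arms was not tested. Leaving out peaks that overlapped an IgG peak of their stage brought the SUUR-labelled shares to 1.29% of stages 12-13 peaks and 1.20% of stage 10 peaks, and the Cdc45-labelled shares to 62.7% and 27.5%.

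Windows of 100 kb rich in egg chamber signal, with a lower limit of 5 percentage points over the IgG of the same stage because these peaks are narrow, were few on X. The list labelled SUUR had 0 of 197 at stages 12-13, against 0.412% of the 1697 windows of all chromosomes, and 0 of 197 at stage 10, against 0.0589%. The list labelled Cdc45 had 2 of 197, or 1.02%, at stages 12-13, against 2.53%, and 4 of 197, or 2.03%, at stage 10, against 6.42%. Both X shares of the list labelled Cdc45 were under their backgrounds, which also hold windows off the major arms. On 2L, 2R, 3L, 3R and X this list had 4077 of 13241 peaks at stages 12-13 and 6926 of 24764 at stage 10. A share of rich windows on these arms alone was not taken. No X window had IgG above a labelled list by this limit. Over the 1697 windows these shares were 0.295% at stages 12-13 and 0.118% at stage 10 for the label SUUR, and 0.354% and 0.118% for the label Cdc45.

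In the lists labelled Cdc45 the window at 15.9 Mb stood farthest above IgG at both stages. There their peaks took up 6.73 kb at stages 12-13 and 11.4 kb at stage 10, and those of IgG 0.082 kb at stages 12-13 and none at stage 10. The 53 peaks at stages 12-13 and 100 at stage 10 ran over the same 48.5 and 48.7 kb, from 15905075 to 15953552 at stages 12-13 and from 15904890 to 15953548 at stage 10. The lists labelled SUUR covered 0.339 kb there at stages 12-13 and 0.166 kb at stage 10. The 3 X peaks of highest fold in the gland IgG list lay in this stretch, at 15911721 to 15915051 and between 15932708 and 15944065, with folds of 5.62 to 6.92. The next highest there, at 2910885 and 11986270 with folds of 5.52 and 5.45, lay in the spans of dense OrR gamma-H2Av clusters. Neither gland gamma-H2Av list had a peak in the window at 15.9 Mb.

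The window at 13.9 Mb had the most coverage of any X window in both lists labelled Cdc45, and the IgG lists were high there too. The list labelled Cdc45 covered 12.4 kb at stages 12-13 and 13.2 kb at stage 10, the list labelled SUUR 7.001 and 1.23 kb, and IgG 6.51 and 2.29 kb. In each of the 6 lists nearly all of it lay in a single block of about the same ends, from 13940807 to 13955319 in the stages 12-13 IgG list, for example. At stages 12-13 this was also the X window with the most IgG coverage.

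The window at 0.1 Mb, next to the telomeric end, held 4.43 kb in the list labelled Cdc45 at stages 12-13 and 9.21 kb at stage 10, and for IgG this was 0.664 kb at stages 12-13 and none at stage 10. Its largest run of peaks at stage 10 went from 129556 to 137550 with 26 peaks covering 5.59 kb, and it opened with a peak of fold 7.11, the highest outside IgG in that list together with one at 15931284. At stages 12-13 a run of 16 peaks from 129623 to 137036 covered 2.29 kb. The fourth window rich at stage 10, at 3.0 Mb, had 1.96 kb at stages 12-13 and 5.29 kb at stage 10 in the list labelled Cdc45, and IgG had 0.249 kb at stages 12-13.

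**Figure D5:**
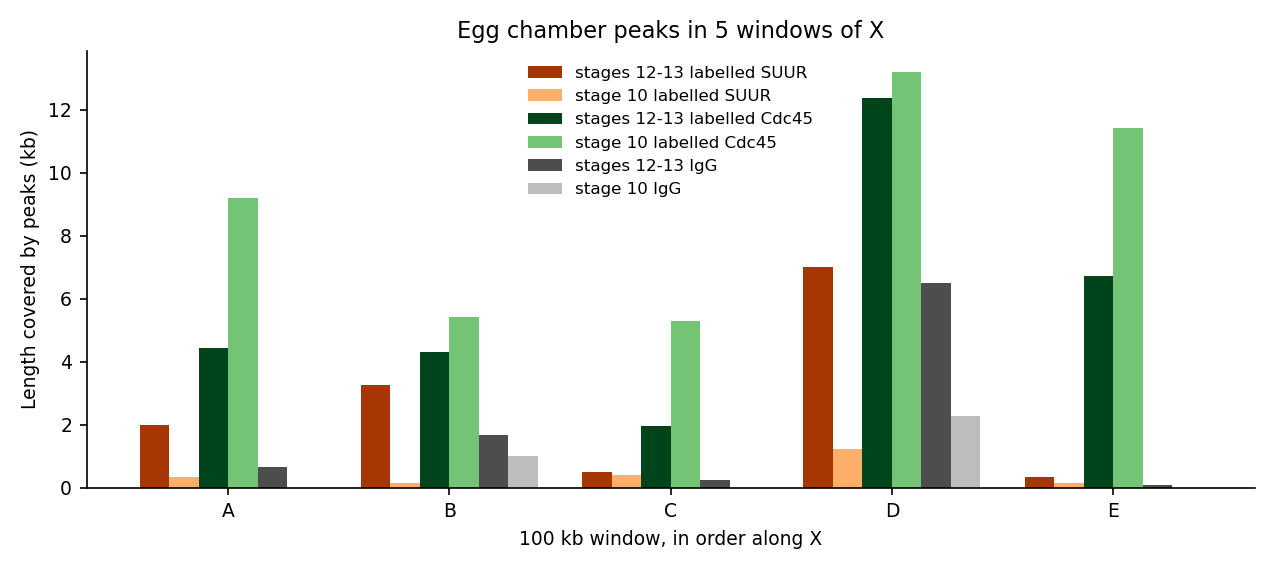
Length covered by peaks (kb) in 5 windows of 100 kb on X, from left to right those at 0.1 (A), 2.9 (B), 3.0 (C), 13.9 (D) and 15.9 Mb (E), for the 6 egg chamber lists (1 library each, no error bars). They are the 4 windows rich in the stage 10 list labelled Cdc45 and the window that stood farthest above IgG in the stages 12-13 list labelled SUUR. IgG is high in D, and in A and E the lists labelled Cdc45 lie far above it.

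The 10 X windows farthest above IgG, taken in each of the 4 labelled lists, made 27 different windows. Of the 10 in the list labelled Cdc45, 8 were the same at both stages, and of the 10 in the list labelled SUUR, 0 were. Differences in these windows ran from 2.00 to 6.64 percentage points in the stages 12-13 list labelled Cdc45 and from 4.21 to 11.4 in the stage 10 one. They ran from 0.799 to 1.59 in the stages 12-13 list labelled SUUR and from 0.368 to 0.570 in the stage 10 one. Besides those above, the windows common to both lists labelled Cdc45 were at 2.5, 2.9, 3.3, 10.9 and 12.8 Mb, with 3.08 to 4.52 kb at stages 12-13 and 4.41 to 5.42 kb at stage 10.

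In the list labelled SUUR at stages 12-13 the largest differences lay at 2.9 Mb (3.28 kb, against 1.69 kb of IgG), 0.9 Mb (3.66 kb against 2.15 kb) and 18.3 Mb (2.77 kb against 1.38 kb). IgG had peaks in all of these windows. At stage 10 they lay at 12.8 Mb (0.617 kb against 0.047 kb), 13.4 Mb and 8.8 Mb, the last of these with 9 peaks of 0.482 kb in all and no IgG peak.

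Some of the peaks of high fold on X lay at places where all 6 egg chamber lists had a peak. Merged over the 6 egg chamber lists, X held 2037 separate sites, of which 1523 were in 1 list and 17 in all 6, IgG included. Sites were merged on X only, so these counts cannot be set against other chromosomes. Of the 17 sites in all 6 lists, 7 lay in the block at 13.9 Mb. The site at 922585 to 924357 had the highest fold among the 17 in 5 of the 6 lists: 19.6 and 11.7 in the lists labelled SUUR at stages 12-13 and stage 10, 10.5 and 11.6 in those labelled Cdc45, and 27.7 and 16.6 in IgG. In the sixth, the stage 10 list labelled SUUR, it was the site at 4129793 to 4129907, with a fold of 42.3 against 10.4 in IgG of that stage. In the stages 12-13 IgG list the 5 peaks of highest fold lay at 922586 and 923449, within that first site, at 4129799, at 12540951 and at 2684005, with folds of 17.4 to 27.7. The stage 10 IgG list had its 5 highest at or within 3 kb of the same places, with folds of 6.38 to 16.6. These lists share an input within each stage, so a site in all 6 is not a result for either antibody.

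Outside IgG peaks, the highest folds were lower. In the stages 12-13 list labelled SUUR the 5 highest ran from 5.57 to 9.70, led by a 78 bp peak at 8644666 with a pileup of 28 tags. In the stage 10 list labelled SUUR they ran from 10.5 to 17.3, led by a 63 bp peak at 19291853 with a pileup of 19 tags. In the lists labelled Cdc45 they ran from 5.01 to 5.70 at stages 12-13 and from 6.54 to 7.11 at stage 10, and peaks near 0.13 and 15.93 Mb were among the 5 at both stages. The 5 highest of the list labelled SUUR had no site in common between stages.

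The gland clusters were then looked up in the egg chamber lists. In the 5 windows from 12.0 to 12.3 Mb and from 14200001 to 14400000, where OrR gamma-H2Av covered 28.7 to 43.0 kb each, the list labelled SUUR covered 0 to 0.276 kb per window at stages 12-13 and 0 to 0.207 kb at stage 10. The list labelled Cdc45 covered 0 to 1.64 kb at stages 12-13 and 0 to 2.17 kb at stage 10. IgG covered 0 to 0.082 kb at stages 12-13 and had no peak there at stage 10. Means in these 5 windows at stages 12-13 and stage 10 were 0.434 and 0.926 kb for the label Cdc45, beside 0.510 and 0.790 kb over all 197. For the label SUUR they were 0.110 and 0.102 kb, beside 0.311 and 0.175 kb. For IgG they were 0.0436 and 0 kb, beside 0.175 and 0.0564 kb. These differences were not tested. In both windows from 14200001 to 14400000 neither labelled list had a peak at stages 12-13, and at stage 10 the list labelled SUUR had 5 and the list labelled Cdc45 8.

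Among windows rich in OrR gamma-H2Av, the one at 2.9 Mb had the most coverage in both labelled lists at stages 12-13. This also held for the list labelled Cdc45 at stage 10. In this window the list labelled SUUR covered 3.28 kb at stages 12-13 and 0.14 kb at stage 10. The list labelled Cdc45 covered 4.31 and 5.42 kb in it, and IgG 1.69 and 1.003 kb. Nearly all of this lay between 2964662 and 2974938, inside a gap between OrR gamma-H2Av blocks and at the place of the 2 gland IgG peaks from 2964085 to 2975216. The cluster of 28 peaks had a similar place with less coverage. Its 10 kb bin from 12060001, in a gap between blocks, was covered to 56.5% by gland IgG. In that bin the lists labelled Cdc45 covered 20.3% at stage 10 and 5.32% at stages 12-13. The lists labelled SUUR covered 0.49% and 2.76% of it, and stages 12-13 IgG 0.82%.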

How the data were processed

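ChIP-seq peak lists of 9 libraries were used; 13 samples include 4 inputs without a list of their own. Members and lists were chosen with earlier results of these data known. Per the submitters' processing notes, BWA and the dm3 build were used. Each library had its own peak call, per the file headers, with MACS 1.4.2 for glands (p limit 1e-05, genome size 2.7e+09, larger than a fly's) and with MACS 2.0.10.20130419 for egg chambers (p limit 1e-03, genome size 1.2e+08). The deposited gland lists give the authors' tag count per peak, a score that scales −log10 of the p-value, the fold enrichment and a false discovery rate in percent. The deposited egg chamber lists give the authors' pileup signal, −log10 p-values and fold enrichment; q-values were not calculated, per the file headers. These scores and folds, the authors' own, describe or rank peaks within a list only.

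From these, covered length was taken in windows of 100 kb and bins of 10 kb, peaks within 100 kb were joined into clusters, and peaks overlapping by 1 bp or more counted as shared, with Wilson 95% intervals (python 3.11.15, pandas 2.3.3, scipy 1.17.1). Windows and overlaps were checked on simulated data. Named were runs of rich X windows, the 10 X windows farthest above IgG in each labelled list, and the 5 X peaks of highest fold outside IgG (in IgG lists, the 5 highest). The 5 kb joining of blocks was chosen after the values were seen. Peaks were not placed in genes or bands, because the only gene table at hand follows Release 6, and no sequence is printed. Alternatives changed the limit, the window and its start, the overlap, the upper 50% of peaks by p, and IgG peaks left out.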

Additional observations from a re-analysis of the deposited data

How the results depend on the processing

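Of 50 alternative values for 13 results, 32 stayed close to the value reported. X windows rich in OrR gamma-H2Av numbered 1 at a limit of 40 points and 3 in windows of 200 kb. Windows rich in the list labelled Cdc45 numbered 10 at stages 12-13 and 25 at stage 10 with a limit of 2 points, and 0 and 2 with a limit of 10 points. At stages 12-13 there were 0 in windows of 200 kb and 1 in windows shifted by 50 kb. The counts of 0 for SuUR gamma-H2Av and for the lists labelled SUUR stayed 0 under each alternative run. SuUR gamma-H2Av covered at most 8.66 kb of a 100 kb window, under the loosest gland limit of 10 points. The lists labelled SUUR stood at most 1.59 points above IgG at stages 12-13 and 0.570 at stage 10. Both were under the loosest egg chamber limit of 2 points. A change of limit alone could therefore not have moved these counts, and their staying at 0 is not read as support.

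With the upper 50% of each list by p, 2.17% of OrR peaks overlapped a SuUR peak, and the share of stage 10 peaks found again at stages 12-13 was 10.8% for the label SUUR and 38.1% for the label Cdc45. With an overlap of 50% of the shorter peak, the Cdc45-labelled shares were 57.7% of stages 12-13 peaks and 29.0% of stage 10 peaks. With IgG-overlapping peaks left out they were 62.7% and 27.5%, and the SUUR-labelled shares 1.29% and 1.20%. With a pileup of 5 or more, chosen after seeing the data, the stage 10 share labelled SUUR was 41.8%, without a split by IgG overlap. Joining within 50 kb, also added then, gave 3 OrR clusters of 5 or more peaks. The causes were not tested. With 1 library per group, all of these describe single libraries, and the shallow stage 10 library labelled SUUR limits what its list can show. No paired analysis was possible because each group is 1 library.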
